A study of Homo sapiens with 30 samples.

Results

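TSC22D3 encodes the glucocorticoid-induced leucine zipper, and its messenger RNA was described here together with 9 other genes of the glucocorticoid receptor pathway in A549 cells treated with herbal extracts. The 10 genes are the receptor itself, NR3C1, and TSC22D3, FKBP5, PER1, KLF9, SGK1, ZFP36, DUSP1, CRISPLD2 and TFCP2L1. They are 10 of the 60675 genes in the deposited table, and all 10 were among the 17459 genes with enough counts to be tested. TSC22D3 was chosen from its high values in the libraries of 1 extract at its highest dose, Soshiho-tang at 500 µg/mL, so its level there is a description and carries no test. The other 9 genes were chosen by name, with earlier results of these libraries known. The question was whether TSC22D3 moved with the other receptor targets or alone.

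The cells were A549, an established line from a human non-small cell lung carcinoma that is much used for work on the glucocorticoid receptor. Each group received vehicle or 1 of 4 herbal formulas, extracted in ethanol and given at 20, 100 or 500 µg/mL, for 24 h. Vehicle, Soshiho-tang and Yijin-tang had 3 libraries in each group, Okbyeongpung-san had 2 at each dose and Soyo-san had 1 at each dose, which made 30 libraries in 13 conditions. Vehicle was DMSO, at 0.1% per the sample labels but at 2% per the text on the series design. No label names a glucocorticoid, so there is no positive control for the receptor in these groups, and the medium of all groups held 10% fetal bovine serum. The libraries came from 1 cell line. The labels do not tell separate cultures from repeat preparations of one, and the p-values measure only the spread between these libraries, which may be technical.

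Glucocorticoids enter the cell and bind the receptor, which a chaperone complex built on HSP90 holds ready in the cytoplasm. The bound receptor moves to the nucleus, where it binds DNA as a dimer and raises genes such as TSC22D3, FKBP5 and PER1. It also lowers inflammatory genes by acting on other transcription factors. In lung epithelial cells TSC22D3, DUSP1 and ZFP36 are among the induced genes that limit inflammatory signalling, and other signals can raise each of them as well.

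The promoters of the genes that rose and of 1 that fell are shown first, because the receptor's DNA letters could be looked for in them. Each window runs from 250 bases before to 50 bases after a RefSeq start site (GRCh38.p14), is printed 5′ to 3′ on the gene's own strand, and has searched motifs in capitals. TSC22D3 has 4 such starts on the minus strand of chromosome X. The upstream start (chrX:107775939-107776238) has the receptor's palindrome core, ACANNNTGT, from position -7, where the start base is 0.
TSC22D3 upstream start: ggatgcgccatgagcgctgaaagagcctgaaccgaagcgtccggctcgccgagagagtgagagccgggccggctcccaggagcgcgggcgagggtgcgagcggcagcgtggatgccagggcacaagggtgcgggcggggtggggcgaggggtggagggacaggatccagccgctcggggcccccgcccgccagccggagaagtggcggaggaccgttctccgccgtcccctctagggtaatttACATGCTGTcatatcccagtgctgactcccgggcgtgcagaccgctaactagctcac
A downstream start of TSC22D3 (chrX:107717013-107717312) has the FOXO motif GTAAACA on the opposite strand, as TGTTTAC, from position -147.
TSC22D3 downstream start: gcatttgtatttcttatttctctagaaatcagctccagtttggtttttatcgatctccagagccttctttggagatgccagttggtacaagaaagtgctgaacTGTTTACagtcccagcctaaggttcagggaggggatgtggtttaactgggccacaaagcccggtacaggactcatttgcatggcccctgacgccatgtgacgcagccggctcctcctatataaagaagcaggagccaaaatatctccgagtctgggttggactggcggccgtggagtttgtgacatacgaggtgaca
DUSP1, the other gene that rose, has 1 start (chr5:172771146-172771445, minus strand) with 3 copies of the cyclic AMP response core TGACGT or its complement ACGTCA, of which 2 overlap, and 1 E-box, CACGTG.
DUSP1: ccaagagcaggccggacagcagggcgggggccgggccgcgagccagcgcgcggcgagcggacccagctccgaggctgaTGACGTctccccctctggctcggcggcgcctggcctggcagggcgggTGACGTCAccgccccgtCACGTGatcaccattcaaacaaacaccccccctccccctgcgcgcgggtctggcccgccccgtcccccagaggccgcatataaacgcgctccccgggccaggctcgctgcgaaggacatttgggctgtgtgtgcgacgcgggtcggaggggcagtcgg
KLF9, which fell, has 1 start (chr9:70414608-70414907, minus strand), in which none of the motifs searched was found.
KLF9: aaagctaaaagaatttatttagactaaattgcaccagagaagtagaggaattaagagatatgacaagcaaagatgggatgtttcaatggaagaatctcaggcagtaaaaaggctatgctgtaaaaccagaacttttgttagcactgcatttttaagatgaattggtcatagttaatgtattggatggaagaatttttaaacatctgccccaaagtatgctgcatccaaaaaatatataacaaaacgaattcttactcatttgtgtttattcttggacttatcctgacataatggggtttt
A match is a description of letters and not a binding site. Only these windows were searched, so the lack of a match leaves sites elsewhere unexamined. On both strands of 35116 RefSeq promoter windows of this length, ACANNNTGT occurred in 5.37%, the receptor's hexamer AGAACA in 14.8%, GTAAACA in 3.42%, TGACGT in 7.98%, CACGTG in 7.26%, the AP-1 motif TGANTCA in 7.71% and the ATF4 composite motif TGATGNAA in 3.62%. A second upstream TSC22D3 window holds the same copy of ACANNNTGT. AGAACA was found at 1 start each of FKBP5 and SGK1, and TGATGNAA at no start of the 10 genes. Genes that fell had other matches too. NR3C1 has GTAAACA, on the opposite strand, from -59 of 1 start and TGANTCA from -228 of another. CACGTG lies from -173 of the PER1 start and from -227 of 1 FKBP5 start. The percentages are per window, and a gene with several starts has more windows in which to match.

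Levels are given as CPM, each library's counts scaled to a common total and corrected by TMM, from the estimated counts per gene. Library totals ran from 19833144 to 38008463 counts. The 3 vehicle libraries held 19833144 to 22327652 counts, fewer than each of the 27 treated libraries, and 13.9 to 14.4% of their counts were from mitochondrial genes, against 8.99 to 13.1% in treated libraries. Every treatment was compared with the same 3 vehicle libraries, so a difference of those libraries enters all 9 comparisons with vehicle, and whether it bears on the changes below was not tested. For that reason the top dose of each replicated extract was set against its own lowest dose as well. Okbyeongpung-san 500 replicate 2 stood apart, with 38008463 counts and 13.1% mitochondrial counts, and calls that change without it are given beside the results. The titles place all Soyo-san libraries and replicate 3 of each Okbyeongpung-san dose in batch D and every other library, vehicle included, in batch E. Batch therefore cannot be told apart from Soyo-san treatment or from the gap between the Okbyeongpung-san replicates. Epithelial markers of the line (KRT8, KRT18 and 6 others) summed to 14458 to 17869 CPM in all libraries, while the alveolar type II markers SFTPA1, SFTPB, SFTPC and NKX2-1 together reached at most 0.386 CPM. Fibroblast markers summed to 35.1 to 37.8 CPM in vehicle and 21.5 to 26.5 CPM in Soshiho-tang 500, most of it COL1A1, with DCN at 0 in both groups. Immune and endothelial sums reached at most 18.4 and 0.532 CPM, with CD3E at 0 in every library.

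TSC22D3 (ENSG00000157514, chrX:107713221-107777342, minus strand, GENCODE 29 on GRCh38) was high in 1 condition only by its library values. In vehicle it had 6.55, 8.30 and 9.08 CPM, and in Soshiho-tang 500 it had 27.5, 28.2 and 30.9 CPM. The lowest Soshiho-tang 500 library was therefore above every other library, and the 24 other treated libraries ran from 8.12 to 11.7 CPM with a median of 9.32. The group mean was 28.8 ± 1.79 CPM (SD, n = 3) against 7.98 ± 1.296 CPM (SD, n = 3) in vehicle, a fold of 3.61 and a log2 difference of 1.85 ± 0.10 (SE). Against Soshiho-tang 20, with 8.97, 8.74 and 8.23 CPM, the log2 difference was 1.74 ± 0.09 (SE). Soshiho-tang 100 had 8.58, 9.43 and 9.78 CPM, so the high level appeared between 100 and 500 µg/mL. Vehicle replicate 1 was the lowest of all 30 libraries, and without it the difference of Soshiho-tang 500 from vehicle was 1.73. These are bulk samples, in which a change in the number of cells that express a gene and a change in RNA per cell cannot be told apart.

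**Figure D1:**
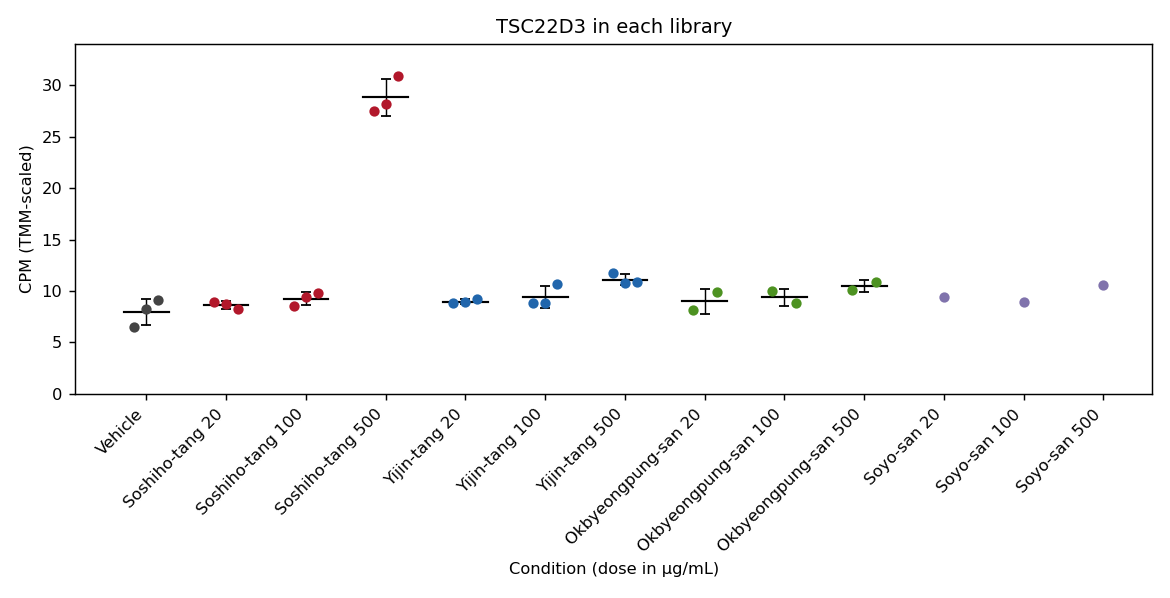
TSC22D3 in each of the 30 libraries (points) by condition, in TMM-scaled CPM, with the group mean (line) and SD (bars) where a group has at least 2 libraries. The 3 Soshiho-tang 500 libraries lie between 27.5 and 30.9 CPM, and all others at or below 11.7 CPM.

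Yijin-tang and Okbyeongpung-san at 500 µg/mL had small excesses of TSC22D3 over vehicle. Yijin-tang 500 had 11.7, 10.7 and 10.9 CPM, all above the 3 vehicle libraries, and TSC22D3 rose against vehicle by 0.47 ± 0.10 on the log2 scale (SE, edgeR quasi-likelihood test, adjusted p = 0.00309). It passed in all 13 alternative settings, with adjusted p from 1.24e-04 to 0.0306. Okbyeongpung-san 500 had 10.1 and 10.9 CPM, also above the vehicle libraries, and the rise was 0.39 ± 0.11 (adjusted p = 0.0232). Over 12 alternatives its adjusted p ran from 0.00899 to 0.172, and the call was lost without vehicle replicate 1 (0.27, adjusted p = 0.132), without Okbyeongpung-san 500 replicate 2 (0.45, adjusted p = 0.0563) and without its replicate 3 (0.33, adjusted p = 0.0888), and when the fit held just those groups (0.38, adjusted p = 0.172). Against their own 20 µg/mL, the differences were 0.31 ± 0.10 for Yijin-tang (95% interval 0.11 to 0.50, adjusted p = 0.228) and 0.22 ± 0.12 for Okbyeongpung-san (-0.03 to 0.47, adjusted p = 0.345), and neither passed.

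At 20 and 100 µg/mL TSC22D3 was within 0.11 to 0.24 of vehicle on the log2 scale for the 3 replicated extracts, and no difference passed (adjusted p from 0.126 to 0.588). Yijin-tang 100 had 8.84, 8.81 and 10.7 CPM and Yijin-tang 20 had 8.82, 8.89 and 9.22 CPM. Okbyeongpung-san 100 had 9.97 and 8.81 CPM, and Okbyeongpung-san 20 had 8.12 and 9.88 CPM. Single Soyo-san libraries gave 10.5, 8.92 and 9.42 CPM at 500, 100 and 20 µg/mL, with no replicate check. In the order of the 13 condition means, Soshiho-tang 500 was clear of every other group. Yijin-tang 500, second at 10.7 to 11.7 CPM, was above the single Soyo-san 500 library but overlapped with Okbyeongpung-san 500, the next replicated group, and the lower neighbours overlapped as well.

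In Soshiho-tang 500 the other 9 genes split, with DUSP1 higher, 6 others lower in 1 comparison or both with vehicle or 20 µg/mL, and a pair that passed in neither. Against vehicle 6 of these 9 genes passed, DUSP1 higher and NR3C1, PER1, KLF9, SGK1 and ZFP36 lower, where 33.1% of all tested genes passed. Against Soshiho-tang 20, 5 of 9 passed, DUSP1 higher and NR3C1, FKBP5, KLF9 and SGK1 lower, where 20.6% of all tested genes passed. The median log2 difference of the 9 genes from Soshiho-tang 20 was -0.26, against 0.0033 over all genes tested. TSC22D3 is left out of these counts, because its high level in Soshiho-tang 500 selected it. Both comparisons use the same Soshiho-tang 500 libraries.

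DUSP1 (ENSG00000120129, chr5:172768090-172771195, minus strand) encodes a phosphatase that switches off MAP kinases. It had 108, 106 and 111 CPM in vehicle, 98.3, 95.4 and 90.3 in Soshiho-tang 20, 102, 103 and 92.1 in Soshiho-tang 100, and 138, 158 and 137 in Soshiho-tang 500. The 3 Soshiho-tang 500 libraries were the highest of the 30 and did not overlap with any other group. DUSP1 rose by 0.41 ± 0.06 on the log2 scale against vehicle (SE, adjusted p = 1.42e-05) and by 0.61 ± 0.06 against Soshiho-tang 20 (adjusted p = 6.79e-08). All other treated libraries lay between 85.0 and 105 CPM, below the lowest vehicle library at 106. Against vehicle DUSP1 fell by 0.23 in Yijin-tang 500 (adjusted p = 0.0136) and by 0.22 in Yijin-tang 100 (adjusted p = 0.0169). The first call was lost without vehicle replicate 3 (-0.21, adjusted p = 0.0597, range over 13 alternatives 9.04e-04 to 0.0597). The second was lost without vehicle replicate 3 (-0.21, adjusted p = 0.0687) and without Yijin-tang 100 replicate 2 (-0.17, adjusted p = 0.0916, range over 13 alternatives 0.0036 to 0.0916).

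NR3C1 (ENSG00000113580, chr5:143277931-143435512, minus strand), the receptor gene, was lower in Soshiho-tang 500. It had 237, 243 and 240 CPM in vehicle, 247, 243 and 257 in Soshiho-tang 20, and 215, 196 and 207 in Soshiho-tang 500, with no overlap. NR3C1 fell by 0.28 ± 0.07 on the log2 scale against Soshiho-tang 20 (SE, adjusted p = 0.00518) and by 0.22 ± 0.07 against vehicle (adjusted p = 0.0153). Without Soshiho-tang 500 replicate 2 the comparison with vehicle no longer passed (-0.19, adjusted p = 0.0809, range over 13 alternatives 3.33e-04 to 0.0809). In the 24 other treated libraries NR3C1 ran from 200 to 269 CPM, and the lowest of them was Okbyeongpung-san 500 replicate 2.

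FKBP5 (ENSG00000096060, chr6:35573585-35728583, minus strand) encodes a co-chaperone that restrains the receptor and is one of its most used reporter genes. Its levels were 31.1, 34.2 and 29.6 CPM in vehicle, 31.4, 32.2 and 35.1 in Soshiho-tang 20, and 29.2, 27.9 and 29.6 in Soshiho-tang 500. FKBP5 fell by 0.19 ± 0.06 against Soshiho-tang 20 (adjusted p = 0.0358), and against vehicle its log2 difference was -0.13 ± 0.06 (adjusted p = 0.127). The highest Soshiho-tang 500 library and the lowest vehicle library both rounded to 29.6 CPM. The first call failed in 6 of 13 alternatives (adjusted p from 0.0297 to 0.215): without Soshiho-tang 500 replicate 1 (0.0768), 2 (0.149) or 3 (0.0525), without Soshiho-tang 20 replicate 2 (0.0741) or 3 (0.215), and with no low-count filter (0.0826). No FKBP5 difference in any other comparison passed.

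SGK1 (ENSG00000118515, chr6:134169246-134318112, minus strand) encodes a kinase that regulates ion transport. It had 51.1, 53.4 and 54.3 CPM in vehicle, 53.0, 57.2 and 54.6 in Soshiho-tang 20, 49.8, 52.4 and 54.7 in Soshiho-tang 100, and 39.7, 38.5 and 38.7 in Soshiho-tang 500. The Soshiho-tang 500 libraries were the 3 lowest of the 30. SGK1 fell by 0.50 ± 0.06 on the log2 scale against Soshiho-tang 20 (SE, adjusted p = 9.73e-07) and by 0.44 ± 0.06 against vehicle (adjusted p = 4.28e-06). Yijin-tang 500, with 44.1, 45.3 and 49.6 CPM, was lower than Yijin-tang 20, with 54.7, 60.6 and 58.6, by 0.32 ± 0.06 (adjusted p = 0.00384). With only those 2 groups in the fit that comparison had adjusted p = 0.0903, the highest of its 13 alternatives, which began at 5.7e-05.

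SGK1 in the other extracts leaned the same way at 500 µg/mL without passing throughout. Against vehicle SGK1 in Yijin-tang 500 fell by 0.19 (adjusted p = 0.0279). That call failed without vehicle replicate 2 (adjusted p = 0.0883) or 3 (0.11), without Yijin-tang 500 replicate 1 (0.132) or 2 (0.0759), and with no low-count filter (0.187). Okbyeongpung-san 500 had 44.9 and 47.7 CPM against 54.3 and 55.1 at 20 µg/mL, a log2 difference of -0.24 ± 0.07 (adjusted p = 0.084), and of -0.19 (adjusted p = 0.849) without replicate 2. Against vehicle its difference there was -0.19 (adjusted p = 0.0503), which passed in 6 of 12 alternatives (adjusted p from 0.00889 to 0.316). The single Soyo-san 500 library had 42.7 CPM, against 54.9 and 58.9 at 100 and 20 µg/mL.

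KLF9 (ENSG00000119138, chr9:70384597-70414624, minus strand) encodes a Krüppel-like transcription factor that glucocorticoids induce in many tissues. Its levels were 6.18, 6.61 and 6.40 CPM in vehicle, 7.34, 7.84 and 7.70 in Soshiho-tang 20, and 5.21, 4.99 and 5.36 in Soshiho-tang 500. KLF9 fell by 0.56 ± 0.10 against Soshiho-tang 20 (adjusted p = 1.29e-04) and by 0.30 ± 0.10 against vehicle (adjusted p = 0.0237). The comparison with vehicle failed in 6 of 13 alternatives (adjusted p from 0.0193 to 0.135): without vehicle replicate 2 (0.0785) or 3 (0.0584), without Soshiho-tang 500 replicate 1 (0.054) or 2 (0.0842), in DESeq2 (0.0596) and with no low-count filter (0.135).

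The lowest KLF9 values were in Yijin-tang 500, with 4.43, 4.32 and 4.90 CPM, against 7.31, 7.24 and 5.75 in Yijin-tang 20. KLF9 fell there by 0.57 ± 0.10 against Yijin-tang 20 (adjusted p = 0.00196) and by 0.49 ± 0.10 against vehicle (adjusted p = 0.00208). With only the 2 groups in the fit, the first had adjusted p = 0.112, the highest of 13 alternatives, which began at 3.36e-04. In Okbyeongpung-san KLF9 had 5.51 and 5.84 CPM at 500 and 7.10 and 7.53 at 20 µg/mL, a log2 difference of -0.37 ± 0.12 (adjusted p = 0.104), and of -0.32 (adjusted p = 0.844) without Okbyeongpung-san 500 replicate 2. The KLF9 groups did not overlap there either.

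PER1 (ENSG00000179094, chr17:8140472-8156506, minus strand), a core circadian repressor that the receptor induces within hours, had 12.998, 13.6 and 13.1 CPM in vehicle and 9.92, 10.8 and 9.18 in Soshiho-tang 500. PER1 fell by 0.41 ± 0.10 against vehicle (adjusted p = 0.00338). Soshiho-tang 20 had 12.2, 12.1 and 11.6 CPM, and the difference of -0.27 ± 0.10 from it did not pass (adjusted p = 0.0616, range over 13 alternatives 0.0318 to 0.217). ZFP36 (ENSG00000128016, chr19:39406813-39409412, plus strand), whose protein destabilises inflammatory messenger RNAs, had 51.7, 54.8 and 51.0 CPM in vehicle and 37.7, 35.4 and 39.2 in Soshiho-tang 500. ZFP36 fell by 0.49 ± 0.13 against vehicle (adjusted p = 0.00628). Its levels in the other treated libraries, 33.0 to 52.3 CPM with a median of 41.4, were mostly below vehicle too, and the difference of Soshiho-tang 500 from Soshiho-tang 20 was -0.26 ± 0.13 (adjusted p = 0.179, range over 13 alternatives 0.00366 to 0.392).

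The remaining pair did not pass in any of the 16 comparisons. CRISPLD2 (ENSG00000103196, chr16:84819984-84920768, plus strand), a secreted protein that glucocorticoids induce in airway smooth muscle, had 22 to 56 counts a library. Its levels were 1.36, 1.39 and 1.51 CPM in vehicle and 1.28, 1.56 and 1.34 in Soshiho-tang 500, with a log2 difference of -0.03 (95% interval -0.42 to 0.37). In Yijin-tang CRISPLD2 had 1.53, 1.78 and 1.57 CPM at 500 and 1.02, 1.03 and 0.964 at 20 µg/mL, a difference of 0.69 ± 0.18 (adjusted p = 0.0866). TFCP2L1 (ENSG00000115112, chr2:121216587-121285207, minus strand), a CP2-family transcription factor, had 7.58 to 10.8 CPM over all libraries, and Soshiho-tang 500 differed from vehicle by -0.02 (95% interval -0.23 to 0.19). Per kilobase of annotated exon, vehicle levels ran from 0.178 CPM for CRISPLD2 through 1.67 for TSC22D3 and 26.2 for NR3C1 to 53.7 for DUSP1.

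**Figure D2:**
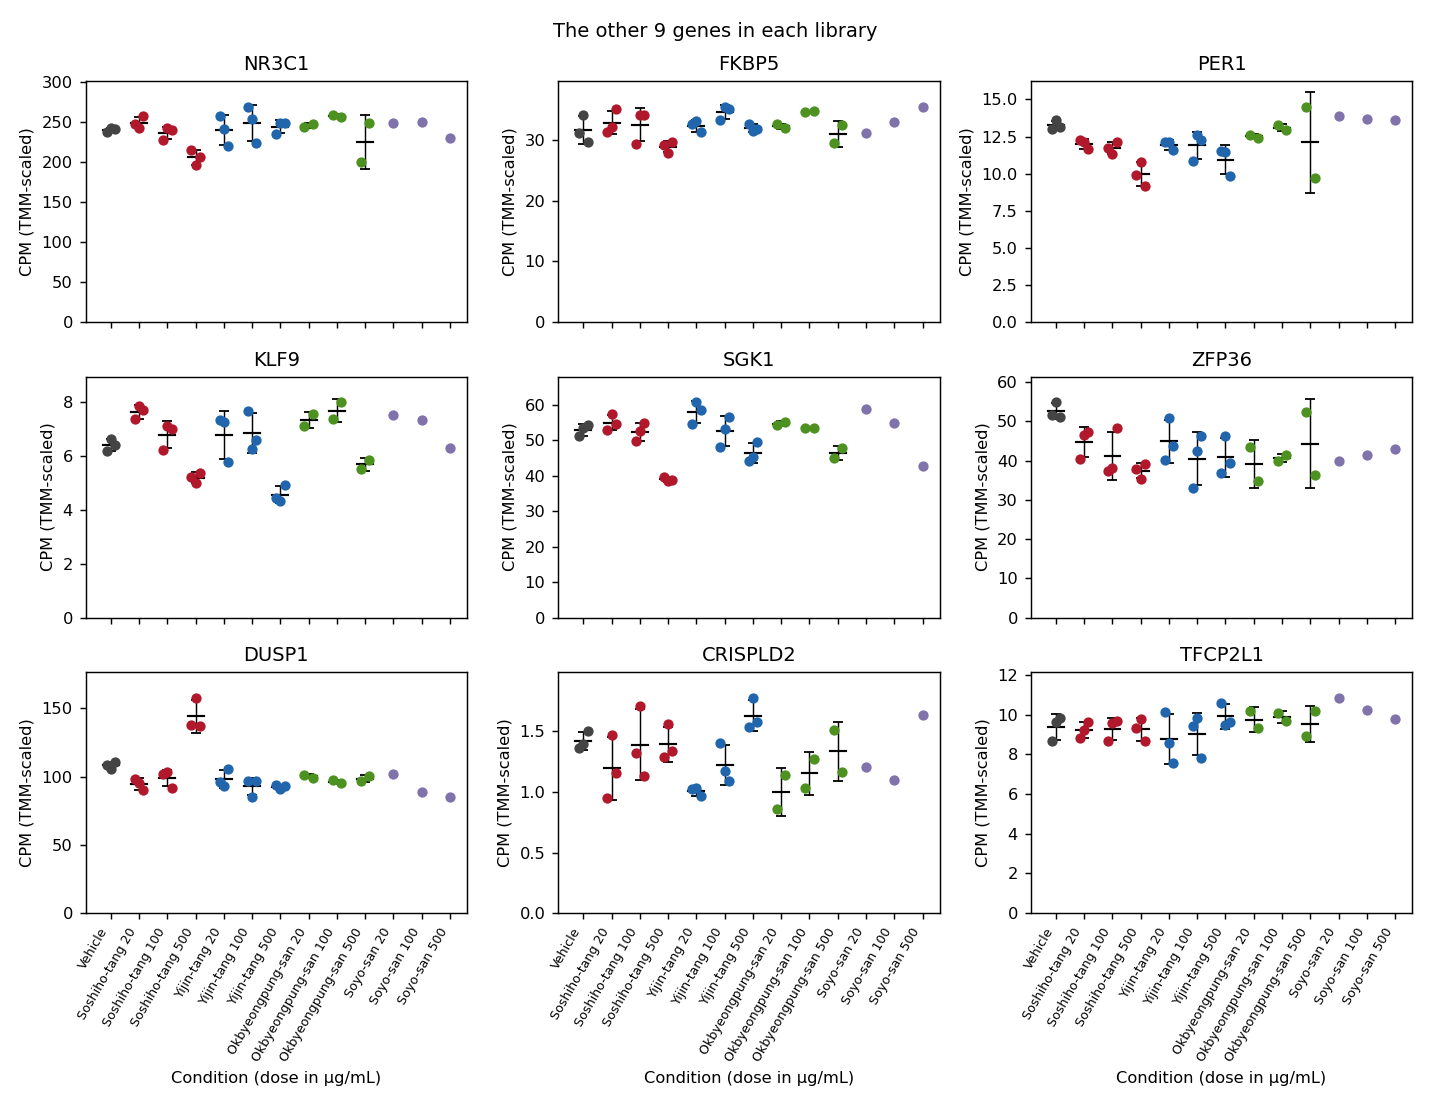
The other 9 genes in each library (points) by condition, in TMM-scaled CPM, with group mean (line) and SD (bars) where there are at least 2 libraries. DUSP1 is highest in Soshiho-tang 500 at 137 to 158 CPM, while SGK1 is lowest there at 38.5 to 39.7 CPM and KLF9 is lowest in Yijin-tang 500.

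In the other comparisons with vehicle 0 to 3 of the 9 genes other than TSC22D3 passed, and DUSP1 was not higher in any of them. Against vehicle, 3 of these 9 passed in Yijin-tang 500 (KLF9, SGK1 and DUSP1 lower), where 15.7% of all tested genes passed, and TSC22D3 was called higher. ZFP36 (-0.36, adjusted p = 0.0617) and PER1 (-0.28, adjusted p = 0.0623) did not pass there, but did in 6 and 3 of 13 alternatives, with adjusted p from 2.35e-04 to 0.216 and from 0.0233 to 0.258. In Yijin-tang 100 only DUSP1 passed, where 14.7% of all passed. ZFP36 there, at -0.37 (adjusted p = 0.0589), passed in 6 of 13 alternatives (adjusted p from 9.54e-05 to 0.251). In Okbyeongpung-san 500 TSC22D3 was called and 0 of the 9 others passed, where 14.9% of all passed. None of the 10 passed in edgeR against vehicle in Soshiho-tang 100 (10.8% of all genes), Soshiho-tang 20 (8.02%), Yijin-tang 20 (10.2%), Okbyeongpung-san 100 (9.49%) or Okbyeongpung-san 20 (10.2%). At an unadjusted p below 0.05 there were 2, 2, 3, 3 and 2 of the 10 genes in these 5 comparisons, and DESeq2 called 0, 1, 0, 0 and 1 of the 9 genes other than TSC22D3 and TSC22D3 in none. ZFP36 had log2 differences of -0.42 to -0.23 from vehicle in them, and its adjusted p over their alternatives ran from 2.95e-05 to 0.612. Between 500 and 20 µg/mL, KLF9 and SGK1 passed in Yijin-tang, where 0.705% of all genes did, and none passed in edgeR in Okbyeongpung-san, where 1.59% did (2 of 10 at an unadjusted p below 0.05, and 1 of the 9 genes other than TSC22D3 in DESeq2). Without Okbyeongpung-san 500 replicate 3, which leaves replicate 2 alone at that dose, NR3C1 (-0.30, adjusted p = 0.0156), KLF9 (-0.42, adjusted p = 0.0342) and SGK1 (-0.30, adjusted p = 0.0156) passed there. Against vehicle, PER1 in Okbyeongpung-san 500 passed without replicate 2 (-0.44, adjusted p = 0.0127, range over 12 alternatives 0.0127 to 0.9), and NR3C1 (-0.27, adjusted p = 0.0213) and SGK1 (-0.24, adjusted p = 0.0316) without replicate 3.

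**Figure D3:**
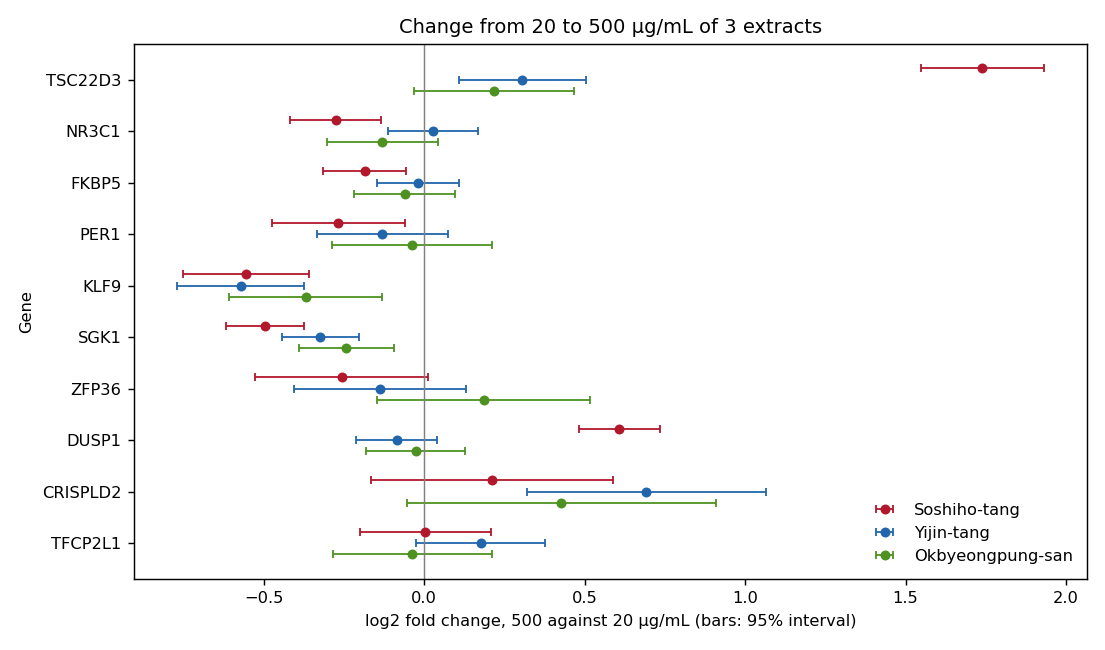
Log2 fold change from 20 to 500 µg/mL for the 10 genes in 3 extracts, with 95% intervals from the edgeR fit. SGK1 and KLF9 are below 0 for all 3 extracts, whereas DUSP1 is above 0 for Soshiho-tang alone, at 0.61 against -0.09 and -0.03.

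The dose effects of the extracts were then compared directly, as the difference between the changes from 20 to 500 µg/mL. DUSP1 rose more with Soshiho-tang than with Yijin-tang, by 0.69 ± 0.09 on the log2 scale (SE, adjusted p = 1.06e-05), where 4.04% of all genes passed. It also rose more than with Okbyeongpung-san, by 0.63 ± 0.10 (adjusted p = 1.6e-04), where 7.01% of all genes passed, and by 0.61 (adjusted p = 0.00168) without Okbyeongpung-san 500 replicate 2. TSC22D3 differed by 1.43 ± 0.13 and 1.52 ± 0.15, given as descriptions. None of the other 8 genes passed in either comparison in edgeR, where 2 of them in each had an unadjusted p below 0.05, and DESeq2 called 1 of them, NR3C1, against Yijin-tang and none against Okbyeongpung-san. Without Okbyeongpung-san 500 replicate 3, PER1 (-0.47, adjusted p = 0.00921) and ZFP36 (-0.67, adjusted p = 0.023) passed against Okbyeongpung-san. For KLF9 the dose effects of Soshiho-tang and Yijin-tang differed by 0.02 (95% interval -0.26 to 0.29), and for SGK1 by -0.17 ± 0.08 (SE, adjusted p = 0.319).

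At 500 µg/mL, Soshiho-tang differed from Yijin-tang in 3 of the 9 genes other than TSC22D3, where 12.6% of all genes passed. TSC22D3 was higher by 1.38 as a description, DUSP1 was higher by 0.64 (adjusted p = 6.01e-08), and NR3C1 and SGK1 were lower by values of -0.24 (adjusted p = 0.0192) and -0.25 (adjusted p = 0.00586). The NR3C1 call was lost without Soshiho-tang 500 replicate 2 (adjusted p = 0.11) or 3 (0.0503) and without Yijin-tang 500 replicate 2 (0.068) or 3 (0.0701). The SGK1 call was lost without Yijin-tang 500 replicate 3 (0.065). Against Okbyeongpung-san 500, 2 of 9 passed, where 18.7% of all genes did. TSC22D3 was higher by 1.46 as a description, DUSP1 was higher by 0.55 (adjusted p = 3.56e-06) and SGK1 was lower with -0.25 (adjusted p = 0.00975). Without Okbyeongpung-san 500 replicate 2 these were 0.52 (adjusted p = 3.33e-04) and -0.29 (adjusted p = 0.033). That SGK1 call was lost without Okbyeongpung-san 500 replicate 3 (adjusted p = 0.065) and when the fit held just those groups (0.126). PER1 (-0.29, adjusted p = 0.0667) did not pass, but did without Okbyeongpung-san 500 replicate 3 (-0.54, adjusted p = 1.74e-04) and with a batch term (-0.38, adjusted p = 0.0113), while without replicate 2 it was 0.04 (adjusted p = 0.906). ZFP36 passed without replicate 3 (-0.48, adjusted p = 0.0234) and with no low-count filter (adjusted p = 0.0168), over a range to 0.929. NR3C1 passed without replicate 2 (-0.27, adjusted p = 0.044), over a range to 0.738. These comparisons share the Soshiho-tang 500 libraries with those above.

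Of 13 tested genes of the receptor's machinery, 1 was higher and 4 lower in Soshiho-tang 500 than in Soshiho-tang 20, where 20.6% of all genes passed, and 8 did not pass. Their median was -0.11. HSP90AA1 and HSP90AB1, the HSP90 chaperones that hold the receptor, fell by 0.53 ± 0.05 (adjusted p = 1.41e-08) and by 0.37 ± 0.04 (adjusted p = 6.6e-07). STIP1, which hands the receptor from HSP70 to HSP90, fell by 0.41 ± 0.06 and FKBP4, the co-chaperone that exchanges with FKBP5, fell by 0.36 ± 0.04. H6PD, which supplies the cofactor for the enzyme that regenerates cortisol, rose by 0.37 ± 0.07 (adjusted p = 4.5e-04). HSP90AA1 was also lower than vehicle in all 9 treatment comparisons, with log2 differences from -0.80 to -0.26. The chaperone PTGES3, the coregulators NCOA1, NCOA2, NCOA3, NCOR1 and MED1, and HSD11B2, which inactivates cortisol, had differences from -0.26 to 0.15 that did not pass. In Yijin-tang and Okbyeongpung-san none of the 13 passed in edgeR between 500 and 20 µg/mL, with 1 and 4 at an unadjusted p below 0.05. There 0.705% and 1.59% of all genes passed. Against vehicle 8, 6 and 5 of the 13 passed in Soshiho-tang 500, 100 and 20, beside 33.1%, 10.8% and 8.02% of all genes. For Yijin-tang these were 7, 5 and 4, beside 15.7%, 14.7% and 10.2%. For Okbyeongpung-san they were 7, 5 and 5, beside 14.9%, 9.49% and 10.2%. The count for Okbyeongpung-san 500 was lower without its replicate 2. All 9 comparisons share the same 3 vehicle libraries. The mineralocorticoid receptor gene NR3C2 and HSD11B1 had too few counts to be tested.

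Other known targets of the receptor went in both directions. Of 45 tested genes that glucocorticoids induce, 11 were higher and 7 lower in Soshiho-tang 500 than in Soshiho-tang 20, with a median of 0.09, where 20.6% of all genes passed. GADD45A, a stress-induced growth arrest gene, had 28.9 ± 3.11 CPM against 12.4 ± 0.985 (SD, n = 3 each) and rose by 1.23 ± 0.08 (adjusted p = 6.91e-11). SERPINA3, an acute-phase protease inhibitor, rose by 0.88 ± 0.31 (adjusted p = 0.0431). Of 13 tested genes that glucocorticoids repress, 10 were higher and 1 lower, with a median of 0.90, beside the same 20.6% of all genes. The neutrophil chemokine genes CXCL8 and CXCL2 rose by 1.80 ± 0.22 and 1.66 ± 0.17, and CCL20 by 1.60 ± 0.45 from a level of 0.175 CPM. CCL2, a monocyte chemokine, was the 1 that fell. Between 500 and 20 µg/mL of Yijin-tang, where 0.705% of all genes passed, the 2 lists had 1 higher and 0 lower, and 1 higher and 1 lower. In Okbyeongpung-san, where 1.59% did, they had 1 higher and 1 lower, and none of either, also without its 500 µg/mL replicate 2.

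In Soshiho-tang 500, TSC22D1, TSC22D2 and TSC22D4, which share the TSC box and leucine zipper of TSC22D3, differed from Soshiho-tang 20 by -0.07, 0.06 and -0.09, and none passed. Against vehicle TSC22D2 fell by 0.29 ± 0.09 (adjusted p = 0.0162). It was called lower against vehicle in Soshiho-tang 20 (-0.34, adjusted p = 0.0207) and Yijin-tang 500 (-0.32, adjusted p = 0.0153) too. With all libraries TSC22D2 was also called lower in Okbyeongpung-san 500, but that call was lost when replicate 2 of the group was left out (-0.22). TSC22D1 and TSC22D2 both passed in Yijin-tang 20 against vehicle, where 10.2% of all genes did. Of the 4 family genes, 1 passed in each 100 µg/mL comparison with vehicle and 2 in Okbyeongpung-san 20. Shares of all genes there were 10.8% (Soshiho-tang 100), 14.7% (Yijin-tang 100), 9.49% (Okbyeongpung-san 100) and 10.2%. TSC22D4 was lower in Soshiho-tang 500 than in Okbyeongpung-san 500 (-0.37, adjusted p = 0.0305), and its dose effects differed by -0.57 (adjusted p = 0.0447). Without Okbyeongpung-san 500 replicate 2 both TSC22D4 calls were lost (-0.04, adjusted p = 0.92, and -0.23, adjusted p = 0.529).

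Of 14 genes that work with PER1 in the circadian clock, 2 were higher and 1 lower in Soshiho-tang 500 than in Soshiho-tang 20, where 20.6% of all genes passed. Against vehicle 2 were higher and 5 lower, where 33.1% passed. NR1D2 and NFIL3, both transcriptional repressors, rose by 0.61 ± 0.11 and 0.60 ± 0.08, while DBP, an activator, fell by 0.48 ± 0.16. Of 19 targets of the FOXO factors, which can also raise TSC22D3, 2 were higher and 2 lower than in Soshiho-tang 20, a share of the list near that 20.6%. Against vehicle 4 were higher and 3 lower, near the 33.1% of all genes. GADD45A is again among them, and the death gene BCL2L11 and the insulin receptor substrate IRS2 fell by 0.38 ± 0.06 and by 0.27 ± 0.09.

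Of the lists examined, the highest median was that of the integrated stress response, the programme driven by ATF4 when amino acids are short or proteins misfold. Of its 20 genes, 16 were higher and 1 lower in Soshiho-tang 500 than in Soshiho-tang 20, with a median of 1.11 against 0.0033 over all genes, where 20.6% of all genes passed. STC2, a secreted glycoprotein, had 122 ± 13.2 CPM against 19.4 ± 0.677 (SD, n = 3 each) and rose by 2.66 ± 0.06 (adjusted p = 2.41e-19). DDIT3, a death-promoting transcription factor, rose by 2.18 ± 0.11, and TRIB3, a pseudokinase that restrains ATF4, by 2.06 ± 0.08. Of the same 20 genes, 6 were higher in Yijin-tang and 3 in Okbyeongpung-san between 500 and 20 µg/mL, with medians of 0.20 and 0.15, where 0.705% and 1.59% of all genes passed. Without Okbyeongpung-san 500 replicate 2, a setting chosen after seeing the data for these lists, 0 of the 20 passed in Okbyeongpung-san. These lists were chosen with earlier results of these libraries known, and their counts are descriptions.

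**Figure D4:**
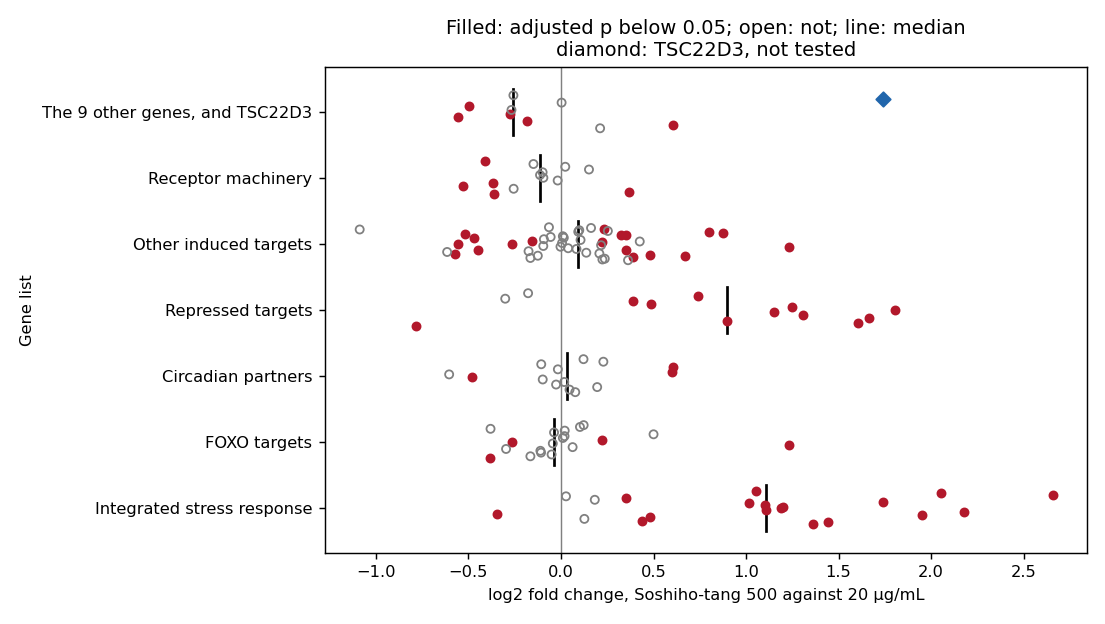
Log2 fold change of Soshiho-tang 500 against Soshiho-tang 20 for each tested gene of 7 lists, filled where the adjusted p was below 0.05, with the list's median as a line and TSC22D3 as a diamond that was not tested. The median is -0.26 for the 9 other genes, 0.90 for repressed targets and 1.11 for the integrated stress response.

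The genes whose levels followed TSC22D3 most closely over the 13 condition means did not include any of the other 9. Of these, CRISPLD2 could not be included, because its mean log2 CPM of 0.42 was below the cut of 2 for ranking. Among 11192 genes the 8 with the highest Pearson r of mean log2 CPM were TNFRSF10B, DDIT4, FAM241A, VLDLR, MCTP1, PYGB, CLGN and EIF1, with r from 0.98 to 0.99. TNFRSF10B, a death receptor, had 226 ± 13.03 CPM in Soshiho-tang 500 and 129 ± 3.63 in vehicle (SD, n = 3 each). DDIT4, an inhibitor of mTORC1 that glucocorticoids and the stress response both induce, had 465 ± 23.5 and 192 ± 3.34 CPM. The 13 means share a vehicle and a normalisation, and Soshiho-tang 500 weighs heavily in them. Without Soshiho-tang 500 and Yijin-tang 500, r over 11 means was 0.82 for TNFRSF10B and 0.89 for DDIT4. It was 0.87 for FAM241A, 0.79 for PYGB, 0.76 for EIF1, 0.71 for VLDLR and MCTP1, and 0.63 for CLGN. Ranking by Spearman's rho gave none of the same 8 genes. FAM241A and MCTP1 had mean levels of 11.9 and 11.8 CPM in Soshiho-tang 500.

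Among the other 9 genes DUSP1 had the highest r with TSC22D3, 0.77, but its Spearman's rho was -0.06, and r was -0.54 over the 11 means. SGK1 had r of -0.78, and -0.67 over the 11 means. NR3C1 had r of -0.81, PER1 -0.70, FKBP5 -0.59, KLF9 -0.58, ZFP36 -0.52, TFCP2L1 -0.10 and CRISPLD2 0.32 over the 13 means. The median over all ranked genes was -0.02. Over the 11 means r was -0.51 for NR3C1, -0.47 for ZFP36, -0.42 for KLF9 and -0.04 for PER1. It was 0.28 for FKBP5, 0.20 for TFCP2L1 and 0.35 for CRISPLD2, so the sign changed for FKBP5 and TFCP2L1. Correlations here are across conditions and are descriptions without a test.

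**Figure D5:**
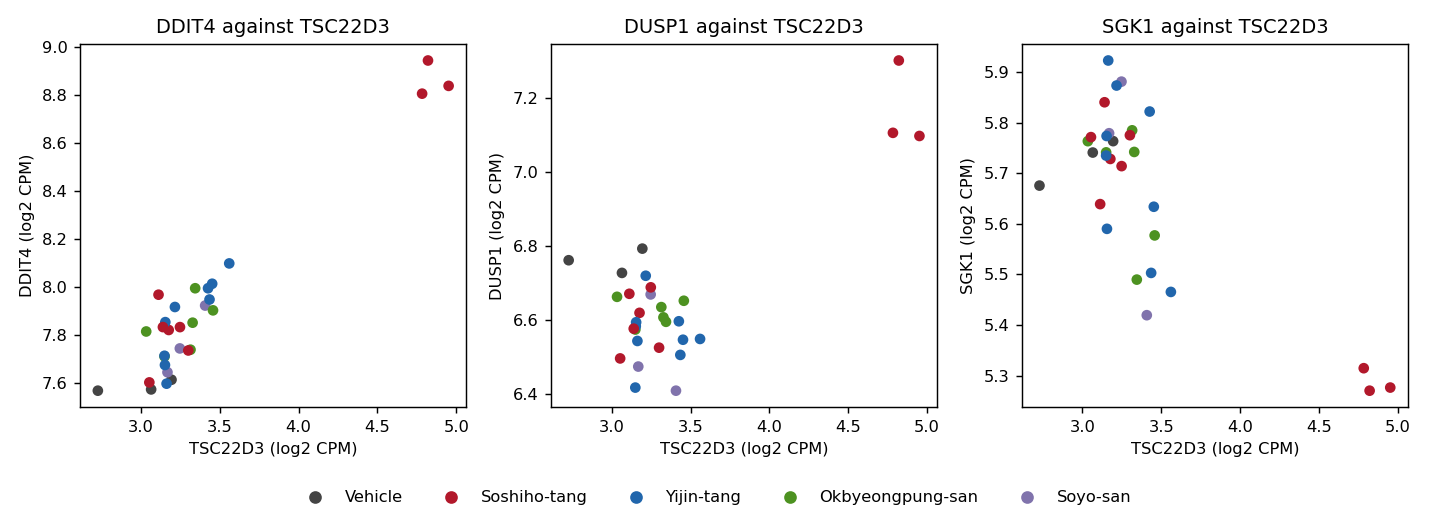
DDIT4, DUSP1 and SGK1 against TSC22D3 in each of the 30 libraries (points, coloured by extract), in log2 CPM. The 3 Soshiho-tang 500 libraries lie apart in each panel, high in DDIT4 and DUSP1 and low in SGK1.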

How the data were processed

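The authors deposited expected counts, 1 value per gene and library, estimated with RSEM 1.3.3 after STAR 2.7.3a, with FastQC 0.11.9 and Trim Galore 0.6.5 also named, on hg38, per the submitters' processing notes. The kit keeps strand, per the labels' protocols, but the strand setting of the counting is not given in the sources used here. The table has 60675 genes and 30 columns of libraries. A further 30 columns hold no values and were left out. Between 9.09 and 11.6% of a library's values were not whole, and all were rounded.

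Of these genes, 17459 passed filterByExpr and were fitted in edgeR 4.0.16 (R 4.3.3) with TMM and the quasi-likelihood test, over 27 libraries from the 10 replicated groups. Benjamini-Hochberg adjustment ran over all 17459 genes, and a gene was called below 0.05. Soyo-san, with 1 library a dose, gave levels only. A 95% interval uses the fit's standard error. The depth of 118 to 8373 counts per library for the 10 genes, CRISPLD2 apart with 22 to 56, limits the precision of the lower ones. The scripts were tested on simulated data.

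The members and gene lists were chosen with earlier results of these data known. No test of TSC22D3 is given in a comparison that uses Soshiho-tang 500. The text names all 10 genes, the 8 genes most like TSC22D3 (mean log2 CPM of at least 2), the 3 called genes of largest change in each other list, and every tested gene of the receptor machinery. Some genes that this rule names are not reported here. CCL2 and the TSC22 family members that did not pass were named after their values were seen. Alternatives were DESeq2 1.42.0 or its size factors, no low-count filter, only the groups compared, a replicate block, a term for the batch in the library titles, mitochondrial genes left out and each replicate left out. Counts of the lists without Okbyeongpung-san 500 replicate 2 were added after seeing the data. Symbols, positions and exon lengths came from the gene name table and GENCODE 29, and promoters from RefSeq.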

Additional observations from a re-analysis of the deposited data

Results flagged for a closer look

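DUSP1 was marked because its change from 20 to 500 µg/mL differed between extracts by a test of the difference itself. The change with Soshiho-tang exceeded that with Yijin-tang by 0.69 on the log2 scale and that with Okbyeongpung-san by 0.63. Over the alternatives the values ran from 0.62 to 0.73 and from 0.57 to 0.67, and both differences passed in each of them (adjusted p at most 2.37e-04 and 0.00652, edgeR or DESeq2). The 2 differences share the Soshiho-tang libraries and are not independent. HSP90AA1, HSP90AB1 and the integrated stress response genes also moved in the same Soshiho-tang 500 libraries, and their part in the DUSP1 result was not tested.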

How the results depend on the processing

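No difference called with all 27 libraries changed direction. In Okbyeongpung-san 500, several differences not called with all libraries took both signs over the alternatives. Against vehicle these were PER1 (-0.44 to 0.12), NR3C1 (-0.27 to 0.05), CRISPLD2 (-0.29 to 0.08), FKBP5 (-0.11 to 0.04) and TFCP2L1 (-0.08 to 0.12). Against 20 µg/mL they were PER1 (-0.36 to 0.20), ZFP36 (-0.10 to 0.41), NR3C1 (-0.30 to 0.02), FKBP5 (-0.14 to 0.02), TFCP2L1 (-0.14 to 0.06) and DUSP1 (-0.06 to 0.01). The DUSP1 rise and SGK1 fall in Soshiho-tang 500, against vehicle and against 20 µg/mL, passed in all 13 alternatives of each. Counts below are of the 9 genes other than TSC22D3 that were called. With no low-count filter there was 1 for Soshiho-tang 100, 2 for Yijin-tang 100, 1 for Okbyeongpung-san 100 and 1 for Okbyeongpung-san 20 against vehicle, and 2 for each difference of dose effects. With only the groups compared in the fit there was 1 for Soshiho-tang 100, 2 for Soshiho-tang 20, 5 for Yijin-tang 500, 2 for Yijin-tang 100, 3 for Okbyeongpung-san 100 and 2 for Okbyeongpung-san 20 against vehicle, 0 for Yijin-tang 500 against 20, 1 for Soshiho-tang 500 against Okbyeongpung-san 500, and TSC22D3 in Okbyeongpung-san 500 against vehicle was 0.38 (adjusted p = 0.172). DESeq2 gave 1 for Soshiho-tang 20, 2 for Yijin-tang 100, 1 for Okbyeongpung-san 500 and 1 for Okbyeongpung-san 20 against vehicle, 1 for Okbyeongpung-san 500 against 20 and 2 for the difference from the Yijin-tang dose effect. DESeq2 size factors in edgeR gave 1 for Soshiho-tang 20 and 1 for Okbyeongpung-san 500 against vehicle, where leaving out mitochondrial genes also gave 1. A batch term gave 5 for Yijin-tang 500, 2 for Yijin-tang 100 and 1 for Okbyeongpung-san 500 against vehicle. The causes of these shifts were not tested.

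Replicate numbers paired the libraries weakly and unevenly. Of 111 same-numbered pairs, 19 had correlated deviations over 0.1. Their median r was 0.02, against -0.01 for pairs of different number, with a range of -0.19 to 0.30. The highest was between Yijin-tang 100 and Yijin-tang 20 replicates 1, and 21 of 27 libraries correlated better on average with their own number. Deviations are from the group mean and cancel within a group, so r for same and for different numbers is partly tied. In the Okbyeongpung-san groups the deviations of the replicates mirror each other, so some pairs repeat a value. The main fit has no term for the replicate number. With the replicate block there were 5 for Yijin-tang 500, 2 for Yijin-tang 100, 1 each for Okbyeongpung-san 500, 100 and 20 against vehicle, 1 for Okbyeongpung-san 500 against 20 and 2 for the difference from the Okbyeongpung-san dose effect. TSC22D3 in Soshiho-tang 500 differed from vehicle by 1.85 with the block.

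Leaving out 1 replicate at a time gave 0 to 1 for Soshiho-tang 100, 1 to 3 for Yijin-tang 500, 0 to 2 for Yijin-tang 100 and 0 to 2 for Okbyeongpung-san 500 against vehicle, 0 to 3 for Okbyeongpung-san 500 against 20, 1 to 3 for Soshiho-tang 500 against Yijin-tang 500, 1 to 2 for the difference from the Yijin-tang dose effect and 1 to 3 for that from Okbyeongpung-san. TSC22D3 ran from 1.73 to 1.96 in Soshiho-tang 500 and from 0.27 to 0.49 in Okbyeongpung-san 500 against vehicle. Where 1 library is left in a group, it is assumed to vary like the others. Of the 8 genes most like TSC22D3, 5 were shared with vehicle left out, 3 with Soyo-san left out and 0 with Spearman's rho.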
